A study of Mus musculus with 6 samples.

Results

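The genes described here encode enzymes that methylate or demethylate histones and DNA and enzymes that deacetylate histones. Members were the rows of the expression table whose symbol starts with Kdm, Kmt, Setd, Hdac, Dnmt, Ezh, Suv39h, Ehmt, Prmt or Sirt followed by a number, together with Tet1, Tet2, Tet3, Eed, Suz12 and Dot1l. These were 74 of 18943 rows, of which 72 are protein coding. The other two, Hdac1-ps and Kdm6bos, are a processed pseudogene and an antisense transcript that share the letters of the rule. RNA-seq was performed on FACS-purified muscle stem cells (MuSCs), the Pax7-expressing precursors of muscle fibers, from 8-week-old C57BL/6 WT mice. The cells were cultured for 5 days with the solvent DMSO, with endothelin-3 (ET-3) or with neurotensin (NT), peptide ligands of the G protein-coupled receptors ET_B and NTS_2. The labels give 100 nM for both ligands, whereas the methods of the study name higher doses. Each group held 2 libraries, and the 3 groups shared genotype, strain, age and culture time.

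Methyl groups on histone H3 lysines 9 and 27 mark silenced chromatin, and methyl groups on lysine 4 mark active promoters and enhancers. Methyltransferases add these groups, demethylases remove them, and histone deacetylases (HDACs) and sirtuins remove acetyl groups. In the muscle lineage the class IIa HDACs are known to bind MEF2 transcription factors and repress their targets, and Ezh2, the catalytic subunit of Polycomb repressive complex 2 (PRC2), is known to silence muscle genes before differentiation.

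The deposited values were scaled read counts, rounded to whole numbers, and they summed to between 4214458 and 4600575 per library. The reads behind them were estimated at 3629134 to 5396233 per library, which gives a counting error of 8.84% to 10.9% at a value of 100. The 2 ET-3 libraries, and likewise the 2 NT libraries, differed from each other by no more than sampling noise (mean chi-square per gene of 0.856 and 0.922), whereas the 2 DMSO libraries differed by more (1.51). The series text and a figure legend of the study speak of triplicate samples, described as biological in the legend, whereas 2 libraries per group were analysed here, and neither says how these libraries relate to separate cultures or animals. The p-values measure the spread between these libraries, which may be technical. Counts of calls are therefore also given after replacing each pair of treated libraries by its mean. In that fit the spread comes from the 2 DMSO libraries alone, which may be technical as well. A kept call there does not settle whether the libraries are independent, and a lost call may reflect the smaller number of samples. Myogenic differentiation markers summed to 35765 and 39326 under DMSO and to between 1825 and 2347 in the ligand-treated libraries, and all 12 passed the 2-fold rule in both comparisons. Of 15 proliferation and S phase markers, 15 passed the test as higher under ET-3 and 14 did so under NT. They summed to 9773 and 10272 in the DMSO libraries and to 14258 to 16100 in the others. Of 8 tested MuSC and myoblast markers, 3 passed the test as higher and 3 as lower under ET-3. Under NT, 3 passed as higher and 5 as lower. The 10 genes of this list summed to 9548 and 10472 under DMSO, 9512 and 9226 under ET-3 and 8298 and 7950 under NT. The median log2 fold change of the 8 tested was 0.01 under ET-3 and -0.27 under NT. Pax7, 1 gene of the list, measured 857 and 1070 under DMSO and 1599 to 1754 under the ligands. Markers of other cell types moved in both directions. Of the endothelial markers, Cdh5 stood at 0 to 5 and Pecam1 at 3 to 15, Tek rose from 2 and 1 to between 42 and 70, Kdr rose, and Vwf fell from 38 and 52 to between 13 and 26. The fibroadipogenic markers summed to between 143 and 180 in every library, but Col15a1 fell from 80 and 82 to 0 or 1 and Smoc2 rose from 12 and 18 to between 78 and 98, with Pdgfra at 20 to 44. Of the Schwann cell markers, Erbb3 fell from 1458 and 1519 to between 76 and 102 and Ngfr rose from 93 and 115 to between 591 and 644. Macrophage markers summed to between 25 and 46, none of the 3 tested passed the test, and Itgam stood at 14 and 7 under DMSO and at 0 in the other libraries. The smooth muscle and pericyte list fell from 3202 and 3585 to between 808 and 991, through Abcc9, Notch3, Rgs5, Mcam and Cspg4, while its defining gene Myh11 stood at 0 to 4. The part of these shifts in the values of the enzymes was not tested, and in bulk samples fewer cells of a type and less RNA per cell cannot be told apart.

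The question asked of these genes was how ET-3 or NT changed their expression relative to DMSO. Most chromatin enzymes changed by less than 2-fold, in both directions. Of the 74 members, 73 reached the mean value of 5 needed for testing, and Kdm6bos did not. Under ET-3, 2 members rose and 7 fell by at least 2-fold with a limma adjusted p no larger than 0.05, beside 6.62% of all tested genes that rose and 14.9% that fell. Under NT, 2 members rose and 4 fell, beside 7.3% and 13.2% of all tested genes. Without the fold threshold, 28 members rose and 28 fell under ET-3 (all tested genes: 30.6% and 33.2%), and 27 rose and 26 fell under NT (29.7% and 32.5%). The counts by family and by partner list below are to be read beside these shares. The median log2 fold change of the members was 0.07 under ET-3 and 0.05 under NT, against -0.01 in both comparisons over all tested genes. Scaling to library totals instead would move the median of all genes to 0.08 and 0.10.

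Dnmt3b and Tet1 rose at least 2-fold under both ligands, and Tet2, Hdac9, Hdac11 and Kdm4b fell at least 2-fold under both, beside 5.85% and 12.5% of all tested genes. Kdm4c, Kdm6b and Kdm7a passed the 2-fold rule under ET-3 alone, with log2 fold changes under NT between -0.99 and -0.91. Between the genes nearest the threshold, Kdm4c lay just inside the threshold under ET-3 at -1.01, and Kmt2c just outside at -0.99. At the adjusted p alone, 24 members rose and 25 fell under both ligands (25.9% and 28.9% of all tested genes), and 0 moved in opposite directions; the comparisons share the DMSO libraries. In 30 tested members all 4 treated values lay above both DMSO values and in 26 below, beside 33.2% and 36.4% of all tested genes, so separation of this kind was common. When treated pairs were averaged, 20 of the 56 calls made under ET-3 at the adjusted p alone were kept (8 higher, 12 lower). Under NT, 20 of 53 were kept (9 higher, 11 lower). Over all tested genes, 63.7% were called under ET-3 and 62.2% under NT before averaging, and 45.6% and 40.7% of those calls were kept. After averaging, 10.6% of all genes were higher and 18.8% lower under ET-3, and 9.33% and 16.3% under NT. Calls lost in at least 5 of the 19 alternative settings were those of Prmt9, Hdac8, Eed, Sirt4 and Sirt5 under ET-3 and of Eed, Kmt2d, Kmt2e, Kdm3b, Sirt3, Prmt1, Kdm5a, Kdm6a, Sirt4 and Sirt5 under NT. With treated pairs averaged, the higher members kept under both ligands were Dnmt1, Ezh2, Hdac6, Prmt5, Suz12 and Tet1. The lower members kept under both in that fit were Hdac9, Hdac11, Kdm3a, Kdm4b, Kdm4c, Kdm5b, Kmt2c, Setd7, Sirt2 and Tet2.

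**Figure D1:**
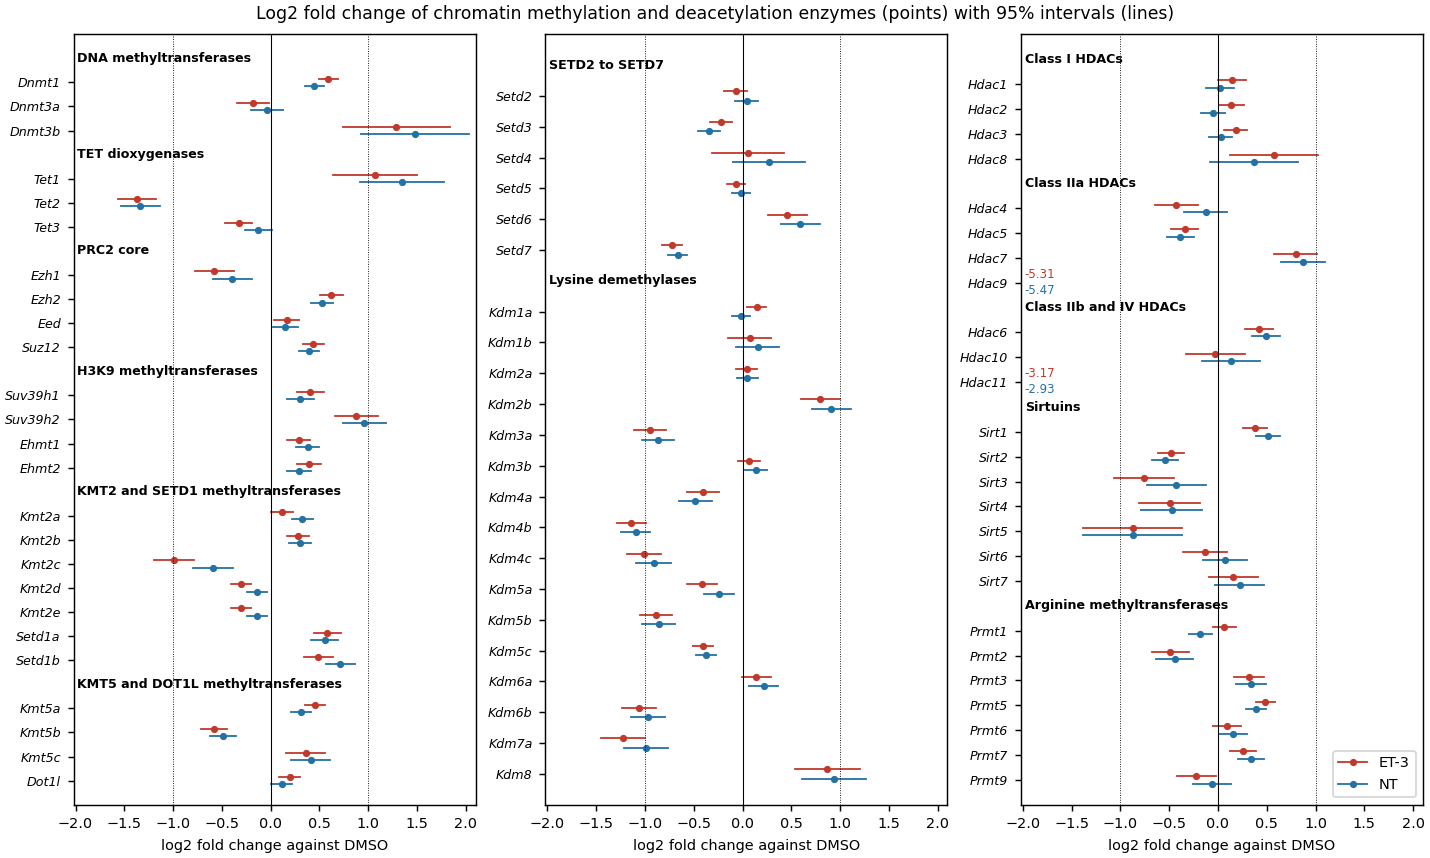
Log2 fold change against DMSO (x axis) of the 72 protein-coding enzymes, arranged by family; points are limma estimates for ET-3 (red) and NT (blue), lines are 95% intervals, and dotted lines mark a 2-fold change. Hdac9 and Hdac11 lie beyond the axis and are printed as numbers; most other members lie between the dotted lines, with the lysine demethylases Kdm3a, Kdm4b, Kdm4c, Kdm6b and Kdm7a near or beyond the lower one.

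DNA methyltransferases and the TET enzymes, which oxidize 5-methylcytosine toward its removal, were first compared. Dnmt1, which copies methylation onto newly replicated DNA, measured 1356 and 1376 under DMSO, 2102 and 2017 under ET-3 and 1904 and 1820 under NT. All 4 ligand-treated values lay above both DMSO values, a log2 fold change of 0.59 ± 0.044 (SE) under ET-3 (limma adjusted p = 1.48e-06) and 0.45 under NT (1.16e-05). Dnmt3b, a de novo methyltransferase, was low, at 17 and 21 under DMSO, 39 and 58 under ET-3 and 57 and 52 under NT. Its log2 fold changes were 1.29 ± 0.25 and 1.48 (adjusted p = 0.0011 and 0.000473), and the adjusted p rose to 0.0569 and 0.0531 when treated pairs were averaged. Dnmt3a, the other de novo enzyme, stood at 294 and 304 under DMSO against 259 to 310 in the treated libraries and did not pass the test in either comparison (adjusted p = 0.0567 and 0.709). Per kilobase of exon within each library, Dnmt3a exceeded Dnmt3b by 5.31 and 4.44 times under DMSO and by 1.42 to 2.04 times under the ligands.

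The 3 TET genes moved apart. Tet2 measured 492 and 477 under DMSO, 176 and 199 under ET-3 and 179 and 205 under NT. The groups did not overlap, and the log2 fold changes were -1.37 ± 0.088 (adjusted p = 5.44e-07) and -1.33 (6.93e-07). Tet1 rose from 24 and 22 under DMSO to 48 and 51 under ET-3 and to 58 and 62 under NT, with log2 fold changes of 1.07 ± 0.19 and 1.35 (adjusted p = 0.000722 and 0.000165). The calls of Tet1 and Tet2 held when treated pairs were averaged, although Tet2 fell short of 2-fold after removal of a least-squares length trend (-0.89 and -0.98) and Tet1 dropped to a log2 fold change of 0.96 under ET-3 with a pseudocount of 5. Tet3 fell from 737 and 653 to 536 and 569 under ET-3 (log2 fold change -0.33, adjusted p = 0.00112), and under NT it measured 632 and 640 (-0.13, adjusted p = 0.109). The sign of Tet3 turned under both ligands when a least-squares trend against exonic length was removed. Per kilobase, Tet2 exceeded Tet1 by 18.8 and 19.9 times in the DMSO libraries and by 2.83 to 3.58 times in the treated libraries. Tet3 was the highest of the 3 per kilobase in all 6 libraries, above Tet2 by 1.38 and 1.51 times under DMSO and by 2.89 to 3.57 times under the ligands.

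Among the DNA methylation partners, which bind, maintain or repair methylated cytosine or supply the methyl donor, 8 of 16 rose and 3 fell under ET-3, and 8 rose and 2 fell under NT, at the adjusted p alone. Uhrf1, which recruits Dnmt1 to hemimethylated DNA, rose with log2 fold changes of 0.73 and 0.65, and Hells, a chromatin remodeler needed for DNA methylation, rose 2-fold (1.06 and 1.03). Gadd45a, a stress-induced gene linked to DNA repair, had log2 fold changes of -0.97 and -1.22. Its values were 622 and 628 under DMSO and 267 to 319 under the ligands, without overlap. Uhrf1 and Gadd45a were chosen after their values were seen.

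**Figure D2:**
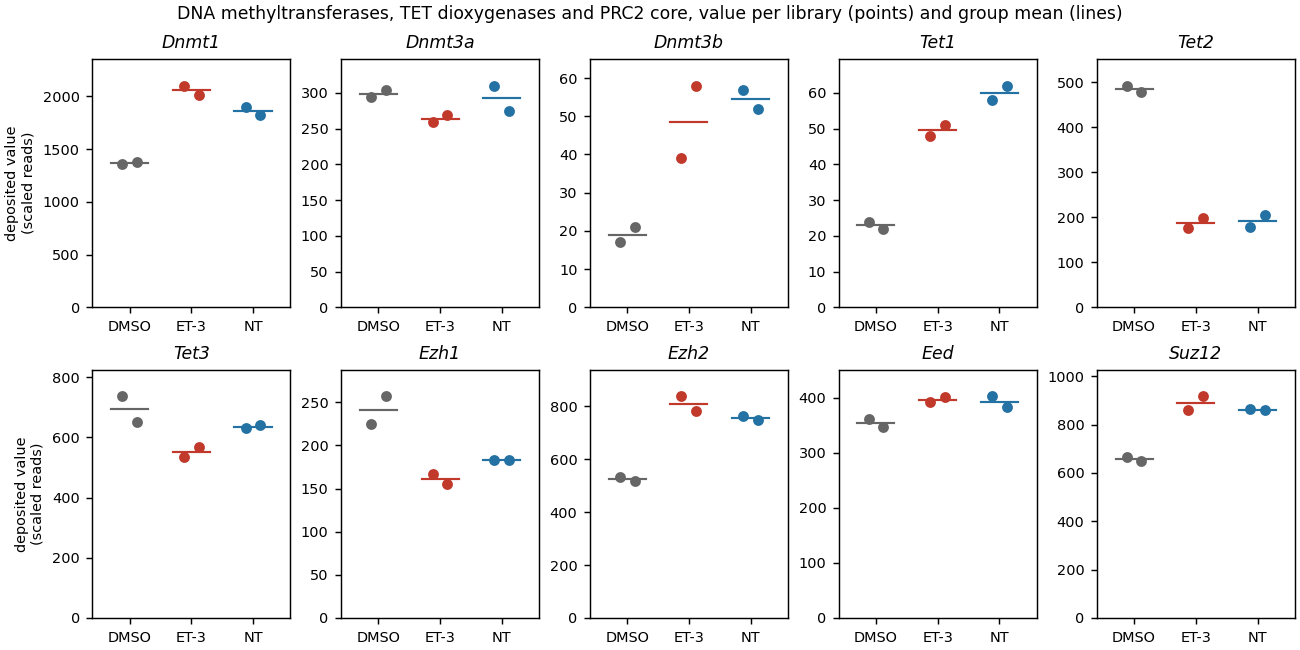
Deposited value (scaled reads, y axis from 0, separate scale per gene) of the DNA methyltransferases, TET dioxygenases and PRC2 core genes in each library (points) with the group mean (line). Dnmt1, Dnmt3b, Tet1, Ezh2, Eed and Suz12 lie higher in all 4 ligand-treated libraries than in both DMSO libraries, Tet2, Tet3 and Ezh1 lie lower, and Dnmt3a overlaps.

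Within PRC2, which methylates H3 lysine 27, the alternative catalytic subunits moved in opposite directions. Ezh2, the subunit abundant in dividing cells, measured 533 and 517 under DMSO, 838 and 781 under ET-3 and 764 and 749 under NT. Ezh1, the subunit that persists in non-dividing cells, measured 225 and 257, then 167 and 155, then 183 and 183. Neither gene overlapped between DMSO and treated libraries. The log2 fold changes were 0.62 ± 0.051 and 0.53 for Ezh2 (adjusted p = 2.95e-06 and 1.04e-05) and -0.58 ± 0.09 and -0.39 for Ezh1 (0.000301 and 0.00363). Per kilobase, Ezh2 exceeded Ezh1 by 2.64 and 2.24 times under DMSO, by 5.59 and 5.61 times under ET-3 and by 4.65 and 4.56 times under NT. With treated pairs averaged, Ezh2 kept its calls (adjusted p = 0.0299 and 0.0359) and Ezh1 lost both (0.0814 and 0.137). The scaffold gene Suz12 rose from 664 and 649 to between 860 and 917 (log2 fold changes 0.44 and 0.39), while Eed, which reads the methylated lysine, stood at 361 and 348 under DMSO and between 383 and 403 under the ligands (0.16 and 0.15). The Eed call under ET-3 was lost in 5 of 19 alternative settings and that under NT in 12, averaged pairs included (adjusted p = 0.139 and 0.161).

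Promoter sequences of the catalytic pair are printed because the 2 genes moved apart. They are RefSeq windows from 250 bases before to 50 bases after the start on GRCm38.p6, written 5′ to 3′. Capitals mark matches on either strand to 5 letter patterns: an E-box (CAGCTG), the cell cycle element CHR (TTTGAA), an E2F site (GCGGGAA), the CCAAT box (CCAAT) and a MEF2 site (CTA and TAG on either side of 4 unspecified bases).
Ezh2 (chr6:47594981-47595280, minus strand): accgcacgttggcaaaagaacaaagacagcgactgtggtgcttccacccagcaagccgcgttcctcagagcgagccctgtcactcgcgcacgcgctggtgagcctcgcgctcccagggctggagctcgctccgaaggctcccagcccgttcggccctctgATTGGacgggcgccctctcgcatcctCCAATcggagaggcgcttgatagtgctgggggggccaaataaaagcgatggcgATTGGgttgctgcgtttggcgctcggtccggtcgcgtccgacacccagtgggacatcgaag
Ezh1 (chr11:101226414-101226713, minus strand): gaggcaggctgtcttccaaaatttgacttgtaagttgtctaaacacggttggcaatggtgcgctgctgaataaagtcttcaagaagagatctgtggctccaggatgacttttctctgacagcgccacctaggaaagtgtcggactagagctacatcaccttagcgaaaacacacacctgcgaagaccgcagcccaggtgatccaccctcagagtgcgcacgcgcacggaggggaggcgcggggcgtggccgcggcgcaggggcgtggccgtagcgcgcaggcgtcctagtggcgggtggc
The Ezh2 window held 3 CCAAT boxes and the Ezh1 window none of the 5 patterns. A CCAAT box occurred in 37.4% of all 32851 mouse promoter windows and in 39.8% of the 83 windows of the 61 members that had an entry, so a match of this kind was common. The CHR pattern occurred in 17.9% of all windows, in 23.5% of the 34 windows of members higher under both ligands and in 3.57% of the 28 windows of members lower under both. These shares describe letters in a fixed window, without a test.

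Of 28 Polycomb partners, 12 rose and 5 fell at the adjusted p alone in each comparison. Of all tested genes, 30.6% rose and 33.2% fell under ET-3, and 29.7% and 32.5% under NT. Cbx2, a chromodomain subunit of PRC1, rose from 107 and 109 to between 238 and 288 (log2 fold changes 1.15 and 1.37), and Phf19, a PRC2 accessory subunit, from 32 and 41 to between 77 and 101 (1.32 and 1.17). Cbx7, another chromodomain subunit, fell (log2 fold changes -0.96 and -0.69), and was chosen after its values were seen.

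The 4 H3 lysine 9 methyltransferases among the members all rose at the adjusted p alone under both ligands, as did 25.9% of all tested genes. Related enzymes outside the member rule, such as Setdb1, were not counted. Suv39h2, which trimethylates lysine 9 in heterochromatin, measured 108 and 124 under DMSO, 225 and 203 under ET-3 and 232 and 220 under NT. Its log2 fold changes were 0.88 ± 0.099 (adjusted p = 2.86e-05) and 0.96 (1.63e-05). The related Suv39h1 went from 633 and 705 to between 794 and 907 (0.41 and 0.30), Ehmt2 (G9a), which dimethylates lysine 9 in euchromatin, from 757 and 830 to between 958 and 1071 (0.39 and 0.29), and its partner Ehmt1 from 584 and 566 to between 686 and 776 (0.29 and 0.38). In all 4, every treated value lay above both DMSO values, as in 33.2% of all tested genes. With treated pairs averaged, Ehmt1 under NT alone kept its call (adjusted p = 0.0463). Suv39h1 exceeded Suv39h2 per kilobase by 4.90 and 4.76 times under DMSO and by 3.02 to 3.74 times under the ligands. The Suv39h2 window, shown because it was the member of this family with the largest change, held an E-box, a CHR and an E2F pattern.
Suv39h2 (chr2:3474937-3475236, minus strand): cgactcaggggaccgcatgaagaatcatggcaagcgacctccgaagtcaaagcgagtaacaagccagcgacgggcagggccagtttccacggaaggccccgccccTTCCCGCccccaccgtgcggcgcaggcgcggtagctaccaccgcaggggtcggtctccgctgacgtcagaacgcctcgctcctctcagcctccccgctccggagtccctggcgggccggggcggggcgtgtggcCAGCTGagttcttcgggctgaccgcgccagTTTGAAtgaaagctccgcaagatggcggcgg
An E2F pattern occurred in 4.60% of all windows and in 7.23% of the members' windows.

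Members that remove H3 lysine 9 methylation mostly fell, beside 33.2% of all tested genes that fell under ET-3 and 32.5% under NT. Demethylases outside the member rule, such as Phf2, Phf8 and Jmjd1c, were not counted here. Of 6 such demethylases, 5 fell under each ligand at the adjusted p alone, and the sixth, Kdm3b, stood at log2 fold changes of 0.07 under ET-3 (adjusted p = 0.267) and 0.14 under NT (0.0317). Kdm4b measured 425 and 410 under DMSO, 191 and 187 under ET-3 and 198 and 192 under NT, log2 fold changes of -1.14 ± 0.067 and -1.09 (adjusted p = 3.06e-07 and 4.35e-07). Kdm4c measured 393 and 388, then 181 and 207, then 203 and 212, with log2 fold changes of -1.01 ± 0.08 and -0.91. Kdm7a, which acts on dimethylated lysines 9 and 27, measured 356 and 294, then 137 and 138, then 157 and 169 (-1.23 ± 0.1 and -0.99). For all 3 genes every treated value lay below both DMSO values, as for 36.4% of all tested genes. Kdm3a, a lysine 9 demethylase induced by hypoxia, fell from 757 and 701 to between 349 and 406 (-0.95 and -0.87), and Kdm4a from 1123 and 953 to between 705 and 785 (-0.41 and -0.48). Summed over the 6 genes, values were 3755 and 3444 under DMSO and 2352 to 2497 under the ligands, whereas the 4 methyltransferases summed to 2082 and 2225 under DMSO and 2695 to 2883 under the ligands. The median log2 fold change was -0.98 and -0.89 for the demethylases and 0.40 and 0.34 for the methyltransferases, against -0.01 over all tested genes. Kdm4b and Kdm4c kept their adjusted p under both ligands with treated pairs averaged (0.0247 to 0.0276), and Kdm4c fell short of 2-fold under ET-3 in 7 of 19 alternative settings, among them scaling to library totals (-0.92). Removal of the least-squares length trend also brought Kdm4b (-0.90 and -0.92) and Kdm7a under ET-3 (-0.93) inside 2-fold.

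**Figure D3:**
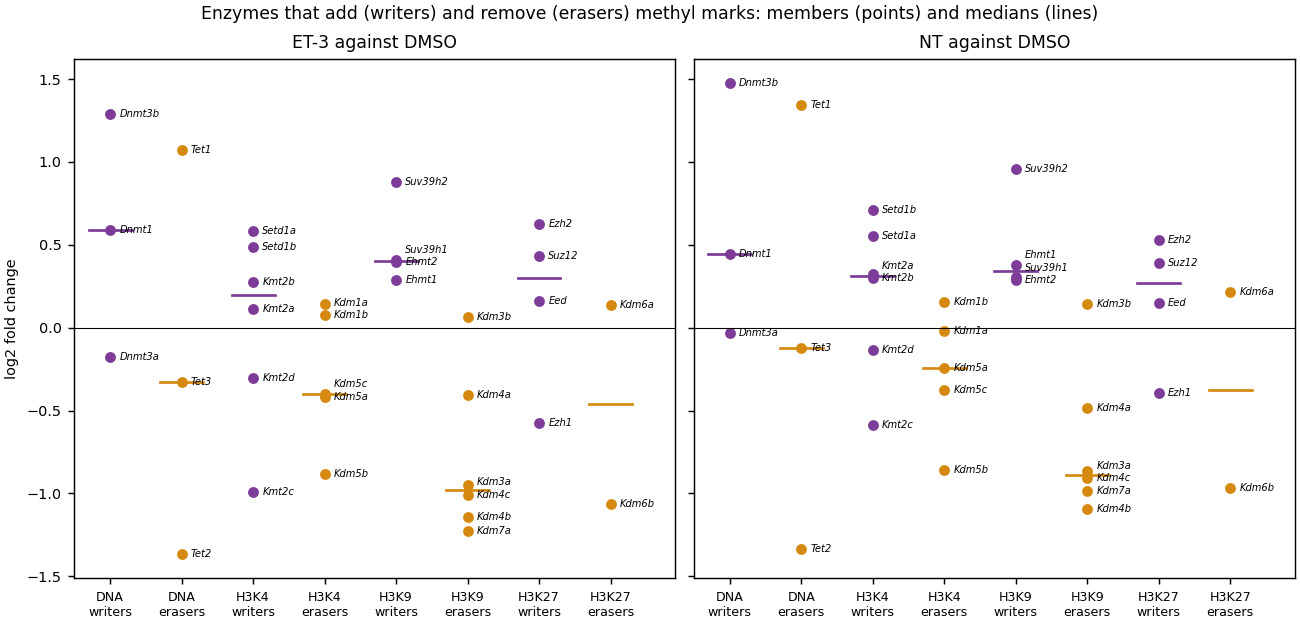
Log2 fold change against DMSO (y axis) under ET-3 (left) and NT (right) of enzymes that add (purple) or remove (orange) methylation of DNA and of histone H3 lysines 4, 9 and 27; each point is 1 gene and each line the median. The lysine 9 methyltransferases among the members lie above 0 in both panels, and the lysine 9 demethylases among them lie below 0 except Kdm3b.

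The H3 lysine 27 demethylases differed between themselves. Kdm6b (Jmjd3) measured 921 and 763 under DMSO, 396 and 405 under ET-3 and 426 and 430 under NT. The groups did not overlap, and the log2 fold changes were -1.06 ± 0.078 (adjusted p = 1.36e-06) and -0.97 (2.84e-06). Its X-linked relative Kdm6a (Utx) measured 499 and 464, then 499 and 563, then 564 and 556, and passed the test under NT (0.22, adjusted p = 0.0153) and not under ET-3 (0.14, 0.0904). Kdm6a stood below Kdm6b per kilobase under DMSO, at a ratio of 0.449 and 0.504, and slightly above it under the ligands, at 1.05 to 1.15. The Kdm6b call under ET-3 was lost with treated pairs averaged (adjusted p = 0.0547), and without the first DMSO library its log2 fold change was -0.93. The antisense row Kdm6bos, which shares 34.0% of its exonic bases with Kdm6b on the opposite strand, stood at 7 and 7 under DMSO and 1 to 3 under the ligands. The sources differ on whether the libraries kept strand, so reads of these 2 rows may be mixed.

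H3 lysine 4 methyltransferases moved in both directions. Of the 6 COMPASS-type enzymes, 3 rose and 2 fell under ET-3 and 4 rose and 2 fell under NT. Setd1a, which trimethylates lysine 4 at promoters, rose from 231 and 247 to between 349 and 360 (log2 fold changes 0.58 and 0.56), and Setd1b from 406 and 362 to between 534 and 656 (0.49 and 0.71). Exons of other genes cover 52.3% of the Setd1a exonic bases, so its value is less certain. Kmt2b, also a promoter enzyme, rose by 0.28 and 0.30, and Kmt2a (Mll1) by 0.32 under NT, against 0.11 under ET-3 (adjusted p = 0.0633). With treated pairs averaged, Setd1b and Kmt2b lost both calls, and Setd1a and Kmt2a lost theirs under NT. Kmt2c, which monomethylates lysine 4 at enhancers, fell from 762 and 713 to 330 and 415 under ET-3 and to 482 and 499 under NT. Its log2 fold changes were -0.99 ± 0.092 (adjusted p = 7.23e-06) and -0.59 (0.000312), and both calls held with treated pairs averaged. After removal of a least-squares length trend the log2 fold changes were -0.44 and -0.17, and the NT call was lost (adjusted p = 0.0769). Kmt2d, the other enhancer enzyme, had values of 1993 and 2046 under DMSO, 1699 and 1581 under ET-3 and 1815 and 1858 under NT (-0.30 and -0.14). Kmt2d and the related Kmt2e (-0.31 and -0.14) turned sign under both ligands when a least-squares length trend was removed.

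Of the 5 lysine 4 demethylases, 3 fell under each ligand. Kdm5b, known for repressing cell cycle and lineage genes, fell from 478 and 514 to between 251 and 286 (log2 fold changes -0.89 ± 0.075 and -0.86), and kept both calls with treated pairs averaged. Kdm5c, on the X chromosome, fell from 1554 and 1648 to between 1207 and 1259 (-0.40 and -0.37), and Kdm5a from 924 and 833 to between 626 and 769 (-0.42 and -0.24), the latter turning sign after removal of the least-squares length trend. Kdm1a (Lsd1) measured 854 and 847, then 948 and 932, then 845 and 835, and passed the test under ET-3 alone (0.14, adjusted p = 0.0127). Kdm1b did not pass it (0.08 and 0.16). Of all tested genes, 30.6% rose and 33.2% fell under ET-3, and 29.7% and 32.5% under NT. Among 13 tested COMPASS partners, 9 rose and 1 fell under each ligand. The one that fell was Hcfc2, a relative of the transcription cofactor Hcfc1, at 482 and 469 under DMSO and 181 to 216 under the ligands (-1.33 and -1.18).

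Kdm2b and Kdm8 were the demethylases with the largest increases. Kdm2b, which brings a PRC1 variant to CpG islands, measured 195 and 166 under DMSO, 326 and 302 under ET-3 and 328 and 351 under NT (0.80 ± 0.088 and 0.91). Kdm8 rose from 66 and 55 to between 101 and 122 (0.87 ± 0.15 and 0.94). Both genes lay higher in all 4 treated libraries, and both lost their calls with treated pairs averaged (adjusted p = 0.0596 to 0.073). Kdm2a, a paralog of Kdm2b, measured 1077 to 1163 across the 6 libraries and did not pass the test. Over all 16 lysine demethylases, 3 rose and 9 fell under ET-3 and 4 rose and 9 fell under NT.

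Among methyltransferases for H4 lysine 20 and H3 lysine 79, Kmt5a, which monomethylates H4 lysine 20 in dividing cells, rose from 675 and 660 to between 816 and 938 (log2 fold changes 0.45 and 0.31). Kmt5b, which adds the second methyl group, fell from 599 and 544 to between 379 and 414 (-0.58 ± 0.06 and -0.49), while Kmt5c, its relative, rose from 139 and 152 to between 187 and 201 (0.36 and 0.41). Kmt5a lay above and Kmt5b below DMSO in every treated library, as did 33.2% and 36.4% of all tested genes. With treated pairs averaged, Kmt5b and Kmt5c lost both calls and Kmt5a lost its call under NT. Dot1l, the lysine 79 methyltransferase, rose under ET-3 (0.20, adjusted p = 0.00489) and stood at 0.11 under NT (0.0651).

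Setd7, a lysine monomethyltransferase known to act with MyoD at muscle genes, measured 1352 and 1417 under DMSO, 830 and 848 under ET-3 and 869 and 878 under NT. The log2 fold changes of -0.72 ± 0.044 and -0.66 (adjusted p = 4e-07 and 7.58e-07) held with treated pairs averaged. Setd3, an actin histidine methyltransferase, fell (-0.22 and -0.34), with its sign under ET-3 turning after removal of the least-squares length trend, and Setd6 rose from 114 and 117 to between 158 and 175 (0.46 and 0.59). Setd2, which trimethylates H3 lysine 36, Setd4 and Setd5 did not pass the test, with log2 fold changes between -0.07 and 0.27. Of 22 other methyltransferases and demethylases outside the member rule, 9 rose and 5 fell under ET-3 and 12 rose and 4 fell under NT. Smyd1, a methyltransferase restricted to striated muscle, fell from 1563 and 1671 to between 244 and 285 (-2.62 and -2.61). Mecom rose from 22 and 14 to between 52 and 70 (1.83 and 1.53) and Prdm16, its homolog, from 13 and 7 to between 18 and 26 (1.10 and 1.18).

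Histone deacetylases held the largest changes among the members. Hdac9, a class IIa enzyme, measured 90 and 85 under DMSO, 4 and 0 under ET-3 and 1 and 1 under NT. In estimated reads, the pooled DMSO level was 51.4 times that under ET-3 (95% counting interval 17.3 to 252, with 3 reads) and 108 times that under NT (29.3 to 896, with 2 reads). Hdac11, the only class IV enzyme, measured 114 and 104 under DMSO, 14 and 9 under ET-3 and 15 and 12 under NT, a ratio of 9.61 (6.06 to 16.1) and 8.13 (5.61 to 12.1). The limma adjusted p values were 4.77e-05 and 4.08e-05 for Hdac9 and 4.69e-06 and 8.68e-06 for Hdac11, and both genes kept their calls under all 19 alternative settings. Exons of other genes cover 17.9% of Hdac11, on the opposite strand. The differentiation markers given above fell in the same libraries, and their part in these falls was not tested.

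Promoter windows of both genes are shown because they carry the largest falls, in the same form as for the PRC2 pair.
Hdac9, start at the 5′ end of the gene (chr12:34917046-34917345, minus strand): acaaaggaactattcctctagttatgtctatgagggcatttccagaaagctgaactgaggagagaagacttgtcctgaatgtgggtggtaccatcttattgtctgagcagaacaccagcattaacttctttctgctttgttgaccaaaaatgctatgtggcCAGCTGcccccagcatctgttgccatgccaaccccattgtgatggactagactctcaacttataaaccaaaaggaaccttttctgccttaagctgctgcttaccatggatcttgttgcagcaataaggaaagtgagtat
Hdac9, internal start (chr12:34528840-34529139, minus strand): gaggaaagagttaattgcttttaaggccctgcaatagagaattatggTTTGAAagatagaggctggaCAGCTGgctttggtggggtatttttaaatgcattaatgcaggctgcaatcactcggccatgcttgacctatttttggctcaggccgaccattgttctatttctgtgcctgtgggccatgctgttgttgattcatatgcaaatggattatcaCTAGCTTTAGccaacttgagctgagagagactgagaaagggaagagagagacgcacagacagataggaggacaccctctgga
Hdac11 (chr6:91156565-91156864, plus strand): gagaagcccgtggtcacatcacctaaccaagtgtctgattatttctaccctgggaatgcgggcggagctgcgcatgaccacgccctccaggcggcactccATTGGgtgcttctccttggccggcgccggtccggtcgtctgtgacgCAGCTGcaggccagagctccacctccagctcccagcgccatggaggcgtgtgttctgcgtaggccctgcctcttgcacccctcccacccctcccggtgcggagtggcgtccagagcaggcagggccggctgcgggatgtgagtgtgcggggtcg
All 3 windows held an E-box CAGCTG, a pattern found in 16.3% of all windows, in 16.9% of the members' windows and in 21.4% of the windows of members lower under both ligands. The internal Hdac9 window also held a MEF2 and a CHR pattern. A short stretch just after its start had an exact match in none of the GENCODE transcripts of Hdac9, unlike the same stretch of the other windows shown. A transcript that begins slightly further in would also give no match, so this start was taken from the RefSeq entry and not checked otherwise. The MEF2 pattern occurred in 3.69% of all windows and in 3.61% of the members' windows. The observed over expected CpG ratio was 0 and 0.205 in the Hdac9 windows and 0.660 in the Hdac11 window. The median was 0.815 over the members' windows and 0.384 over all windows.

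The remaining class IIa enzymes changed less and in both directions. Hdac7 rose from 253 and 307 under DMSO to 528 and 444 under ET-3 and 500 and 522 under NT. Its log2 fold changes were 0.79 ± 0.1 and 0.87 (adjusted p = 6.5e-05 and 3.56e-05). Hdac5 fell from 1012 and 1150 to between 808 and 867 (-0.34 and -0.39). Hdac4 measured 387 and 343, then 299 and 245, then 345 and 323, and passed the test under ET-3 (-0.43, adjusted p = 0.00322) but not under NT (-0.13, 0.286); its sign under ET-3 turned after removal of the least-squares length trend. Per kilobase, Hdac5 exceeded Hdac7 by 3.08 and 2.88 times under DMSO and by 1.19 to 1.45 times under the ligands. The Hdac7 and Hdac5 calls were lost with treated pairs averaged (adjusted p = 0.074 to 0.142).

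**Figure D4:**
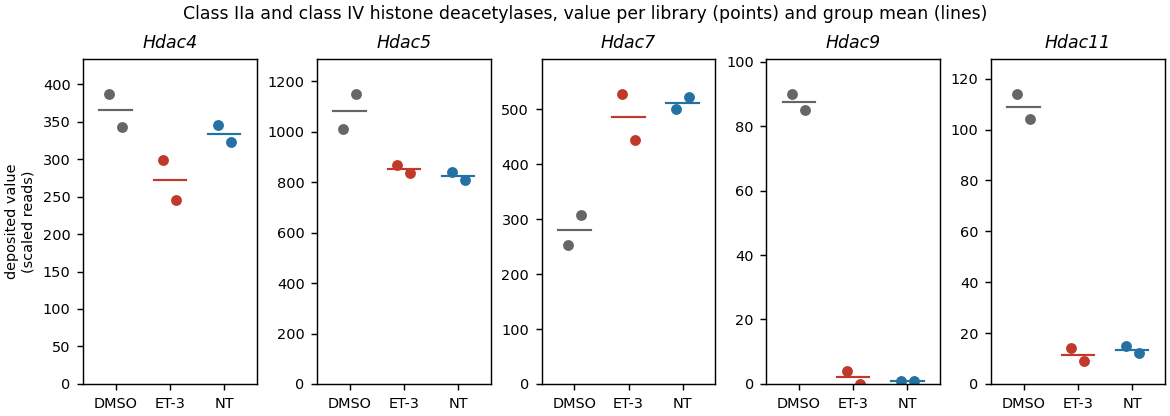
Deposited value (scaled reads, y axis from 0, separate scale per gene) of the class IIa genes Hdac4, Hdac5, Hdac7 and Hdac9 and the class IV gene Hdac11 in each library (points) with the group mean (line). Hdac9 and Hdac11 are near 0 in the 4 ligand-treated libraries, Hdac7 is higher there than under DMSO, and Hdac5 is lower.

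Of the class I deacetylases, Hdac1, Hdac2 and Hdac3, catalytic subunits of the NuRD, SIN3, CoREST and NCoR corepressors, moved little. Hdac1 ranged from 344 to 409 and Hdac2 from 630 to 766 over the 6 libraries, and neither passed the test. Hdac3 rose under ET-3 (0.18, adjusted p = 0.0126) and stood at 0.03 under NT (0.684), and the low Hdac8 rose under ET-3 from 37 and 49 to 70 and 58 (0.57, adjusted p = 0.0304). Hdac6, a cytoplasmic tubulin deacetylase, rose from 266 and 265 to between 344 and 387 (0.42 and 0.49), and kept both calls with treated pairs averaged. Hdac10 did not pass the test (-0.03 and 0.13). Among 26 corepressor partners, 11 rose and 5 fell under each ligand, beside 30.6% and 33.2% of all tested genes under ET-3 (29.7% and 32.5% under NT). Chd3, a NuRD remodeler, fell from 1911 and 2018 to between 381 and 482 (-2.31 and -2.09), while its paralog Chd4, chosen after its values were seen, measured 2422 to 2862 across the libraries and did not pass the test. The pseudogene row Hdac1-ps stood at 6 to 13 and may share reads with Hdac1.

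Sirtuins, which use NAD+ to remove acyl groups, were 1 higher and 4 lower of 7 under each ligand. The shares over all tested genes were 30.6% and 33.2% under ET-3 and 29.7% and 32.5% under NT. Sirt1, a nuclear enzyme, rose from 360 and 344 to 448 and 468 under ET-3 and 496 and 509 under NT (0.38 ± 0.055 and 0.51). Sirt2, mainly cytoplasmic, fell from 481 and 505 to between 335 and 364 (-0.48 ± 0.058 and -0.54) and kept both calls with treated pairs averaged. The mitochondrial members fell together: Sirt3 from 130 and 112 to between 67 and 92 (-0.76 and -0.43), Sirt4 from 98 and 107 to between 69 and 78 (-0.49 and -0.48) and Sirt5 from 74 and 64 to between 32 and 43 (-0.87 and -0.87). All 3 lost their calls with treated pairs averaged (adjusted p = 0.0674 to 0.153). Sirt6 and Sirt7 did not pass the test. A list of 17 held acetyltransferases, the opposing enzymes, together with the associated subunits Brpf1, Brpf3, Ing4 and Ing5. Of these 17, 7 were higher and 5 lower under ET-3, and 7 were higher and 4 lower under NT. Kat2b (PCAF), a coactivator of MyoD, fell from 159 and 134 to between 38 and 58 (-1.76 and -1.62), and Ncoa1 from 1692 and 1747 to between 559 and 682 (-1.61 and -1.36).

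Arginine methyltransferases showed small changes. Prmt5, which makes symmetric dimethylarginine, rose from 603 and 616 to between 797 and 867 (0.49 ± 0.045 and 0.39; adjusted p = 6.84e-06 and 3.61e-05) and kept both calls with treated pairs averaged. Prmt7 rose from 455 and 411 to between 516 and 559 (0.26 and 0.34), and Prmt3, a ribosomal protein methyltransferase, from 398 and 346 to between 458 and 477 (0.32 and 0.34). Prmt2 fell from 249 and 266 to between 173 and 194 (-0.49 and -0.44). Prmt1, the main asymmetric arginine methyltransferase, measured 798 and 863 under DMSO, 877 and 860 under ET-3 and 754 and 710 under NT. It did not pass the test under ET-3 (0.07, adjusted p = 0.309) and passed it under NT (-0.18, 0.0136). Prmt6 did not pass the test, and Prmt9 passed it under ET-3 (-0.22, adjusted p = 0.0487), a call lost in 15 of 19 alternative settings.

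Levels were compared between genes as the deposited value per kilobase of exon, averaged over the 6 libraries. Dnmt1 stood highest at 239, followed by Prmt1 at 237, Prmt5 at 190.5 and Kdm5c at 189.7. The order differed by group: under DMSO alone, Prmt1 (242) and Kdm5c (225) stood above Dnmt1 (185), and under ET-3 and NT Dnmt1 led at 279 and 252, followed by Prmt1 at 254 and 214. These neighbours were not tested against each other. Over all libraries, the highest in the other families were Ehmt2 at 170.3, Suz12 at 162, Hdac2 at 156, Kmt5a at 151, Hdac5 at 105, Setd7 at 95.5, Kmt2d at 91.9, Sirt1 at 82.1, Hdac6 at 57.0 and Tet3 at 37.6. Hdac9 stood lowest at 2.06, through its values under ET-3 (0.136) and NT (0.0682). Under DMSO it stood at 5.97, above Dnmt3b at 3.72 and Tet1 at 1.49, the lowest there. Members were longer than the tested genes as a whole, with a median of 6.04 kb of exon against 4.29 kb. The 21 members with over 10 kb of exon had a median log2 fold change of -0.31 under ET-3 and -0.13 under NT, beside -0.13 and -0.04 over the 1317 tested genes of that length.

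The ligands were also compared with each other. In NT against ET-3, 0 members changed 2-fold in either direction, beside 0.079% of all tested genes (0.0503% higher and 0.0287% lower under NT). At the adjusted p alone, 0 members were higher (0.647% of all tested genes) and 1 was lower (2.05%, with 2.69% in either direction). In the same limma fit, 11 members were higher and 7 lower under NT at an unadjusted p under 0.05. With voom weights, 4 members were higher at the adjusted p. The shares of all tested genes passing these cuts were not computed, so these counts do not show a difference particular to these enzymes. The gene lower at the adjusted p was Prmt1, with a log2 difference of -0.25 (adjusted p = 0.0466), and the call was lost when any single library was left out. Kmt2c differed by 0.41 with a 95% interval of 0.20 to 0.61 (adjusted p = 0.0507). A p that misses the threshold does not show that the ligands acted alike: the interval for Tet2 ran from -0.16 to 0.23 and that for Kdm4b from -0.11 to 0.20. Among 8 tested heterochromatin readers, 4 rose and 2 fell under each ligand against DMSO; Cbx1 and Cbx3, HP1 proteins that bind methylated lysine 9, rose with log2 fold changes of 0.29 to 0.41, and Cbx5 fell (-0.15 and -0.24); all 3 were chosen after their values were seen.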

How the data were processed

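RNA-seq of MuSCs was examined in 6 libraries, grouped by their labels into DMSO, ET-3 and NT. Per the labels, RNA from a miRNeasy micro kit was made into libraries with a SMART-Seq kit, and the processing notes name Trimmomatic 0.38, STAR 2.7.7a, featureCounts 1.6.5, DESeq2 1.30.0 and mm10; the methods of the study name another library kit, Reaper and other versions, which was not settled here. The table deposited by the authors holds a signal per gene and library, whole numbers that behave as read counts scaled by 1 factor per library and rounded. The factors were estimated from the frequency of each whole number. Up to 200, no read count gives 26 numbers in the second DMSO library and 32 and 17 in the ET-3 libraries, and 0 genes stood at these. In the first DMSO library and both NT libraries the factors were below 1 (0.983, 0.855 and 0.781). Every number can be reached there, so this check says nothing about their factors. Raw counts were not used, so the count models were not run.

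The 13921 genes whose mean value reached 5 were tested on log2(value + 1) with limma 3.58.1 in R 4.3.3 (lmFit, eBayes with trend), all 6 libraries in 1 fit, with Benjamini-Hochberg adjustment over all tested genes in each of 3 comparisons. Calls were made at an adjusted p no larger than 0.05, with or without a 2-fold threshold. On this scale the fold changes of low genes are understated. Depth was 3629134 to 5396233 estimated reads; intervals on read ratios are exact 95% binomial and cover counting error only. Replicate numbers did not pair the libraries (correlations of deviations between -0.0704 and -0.008). Exonic lengths came from GENCODE vM21 (74 of 74 members matched, with identical ends), and promoter windows from RefSeq (GRCm38.p6, 61 of 74 members). Per-length levels divide the value by exonic length and do not correct for coverage bias.

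Members, gene lists and tests were chosen with earlier results of these data known. Named genes were those past both thresholds, fixed sets of paralogs and complexes, the highest per kilobase in each family, those at the adjusted p in NT against ET-3, and partner genes past both thresholds under both ligands; others of the members are given by their values. Setdb1, in one fixed set, does not meet the member rule. One marker gene is not reported here. Alternatives covered the filter, scaling, pseudocount, voom weights, 2 groups alone, averaged treated pairs, a replicate block, each library left out, and, added after seeing the data, removal of trends against coverage or exonic length. A least-squares trend was run first, and a robust trend, which gives outlying genes less weight, was added after its result was seen; both are given. The fits were tested on simulated data. Python 3.11.15, pandas 2.3.3, numpy 2.4.6, scipy 1.17.1 and matplotlib 3.10.9 were used.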

Additional observations from a re-analysis of the deposited data

Results flagged for a closer look

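Prmt1, chosen for a closer look because the test of the ligand difference itself passed, differed between the ligands, with a log2 difference of -0.247 for NT against ET-3 in the limma fit (adjusted p = 0.0466). The 2 NT values, 754 and 710, lay below the 2 ET-3 values, 877 and 860, and DMSO stood at 798 and 863. The call was lost under 13 of 19 alternative settings, and the cause of the difference was not tested.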

How the results depend on the processing

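Counts of calls depended most on how the treated pairs were counted and on a least-squares trend. Shares of all tested genes were computed for the main limma fit and, against DMSO at the adjusted p alone, for averaged pairs. Under the other settings they were not computed, so the counts there do not show a change particular to these enzymes. Averaging each treated pair, which leaves fewer samples, lowered the members at the adjusted p alone to 8 higher and 12 lower under ET-3 and 9 and 11 under NT, and the members higher 2-fold to 1 under each ligand. The partner genes then went to 22 higher and 16 lower under ET-3 and 23 and 14 under NT (60 and 26, and 63 and 23, otherwise), with 2 higher 2-fold under each ligand in place of 5. Removing a length trend by least squares gave 6 members higher and 2 lower 2-fold under each ligand, 43 and 44 higher at the adjusted p alone, and among partner genes 10 and 9 higher 2-fold, 99 higher under ET-3 and 15 lower under each. Removing a coverage trend by least squares gave 7 members higher and 3 lower 2-fold under ET-3 and 5 higher under NT. Scaling to library totals gave 5 members higher 2-fold under NT, and a pseudocount of 5 gave 1 under ET-3. The least-squares length trend turned the log2 fold change of Dnmt3a to 0.2953 and 0.3188 (ET-3 and NT), Kmt2d to 0.2397 and 0.2755, Kmt2e to 0.0047 and 0.0722, Kdm5a to 9e-04 and 0.0597, Tet3 to 0.1469 and 0.2286 and Setd5 to 0.4442 and 0.3685. It also turned Hdac4 to 0.0283, Prmt9 to 0.0211, Setd2 to 0.2495 and Setd3 to 0.0128 under ET-3, and Kdm1a to 0.1632 and Prmt1 to 0.0028 under NT. The coverage trend turned Dnmt3a to 0.2499 and 0.2876 and Prmt9 under ET-3 to 0.06. With robust trends only Setd5 under ET-3 turned (length, 0.1315), and the cause of these reversals was not tested. In NT against ET-3, the members higher at the adjusted p alone numbered 4 under library totals and under voom, and 2 under upper quartiles and a pseudocount of 5. The 1 lower became 0 without a filter, with a pseudocount of 0.5, with 2 groups alone, with averaged pairs, with the replicate block and after either coverage trend, 2 after the robust and 6 after the least-squares length trend. Leaving out 1 library at a time gave 0 there, 2 to 4 members higher 2-fold under NT (4 without either DMSO library) and 3 to 5 partner genes higher 2-fold under NT (3 without the second DMSO library). The members lower 2-fold ranged from 5 to 10 under ET-3. Replicate numbers did not pair the libraries; the replicate block kept 55 of 56 member calls under ET-3 and 52 of 53 under NT, with 2 higher and 7 lower 2-fold under ET-3. Depth limits the low genes, such as Hdac9, Sirt5 and Dnmt3b.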
